A study of Mus musculus with 6 samples.

Results

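The nuclear receptors and their coregulators were described in the hippocampus of mice with 1 working copy of the p300 gene. The set was named as 40 genes, 30 receptors and 10 coregulators, and its members were all probe sets whose platform annotation gives exactly 1 gene symbol from that list. Members were found for 38 of the 40 genes, read by 111 of the 45037 probe sets tested, out of 18193 named genes. Nr1h2, the liver X receptor beta gene, and Ncor1, a corepressor gene, had no such probe set, so their signal was not analysed here. Another probe set carries Ppard together with a further symbol and was left out.

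The study compared p300+/- mice (heterozygous, p300 deficient) with wild-type littermates, all adult females of 3 months on a C57BL/6 background, with no treatment. Hippocampal RNA of 4 animals was pooled in equal amounts for each Affymetrix Mouse Genome 430 2.0 array. With 3 arrays per genotype, 12 animals of each genotype entered 6 arrays, and the spread between arrays is one between pools and not between animals. The labels do not describe the allele or the cells it affects, and pooling hides any difference between animals. In such bulk tissue, fewer cells of a type and less RNA per cell cannot be told apart.

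Nuclear receptors are transcription factors that bind DNA and are switched by small fat-soluble ligands such as steroids, thyroid hormone, retinoic acid and fatty acids, while the orphan members have no settled ligand. Some receptors, without ligand or with a blocking one, hold corepressors such as NCoR1. Ligand changes the shape of a receptor so that p160 coactivators bind. These bring in p300 and CBP, the lysine acetyltransferases that modify nearby histones. The receptor genes and the cofactor genes are therefore different layers of a pathway in which p300 itself is a shared cofactor. In the hippocampus the thyroid hormone, retinoid, estrogen and orphan receptors are known for roles in neuron development, plasticity and the upkeep of neural stem cells.

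Each deposited value is a log2 signal relative to the median of that probe set over the 6 arrays. Differences between arrays are kept and absolute levels are not, so no receptor can be ranked against another by abundance. The sources used here do not give the base of the logarithm, which was taken as 2, a choice that bears on folds and not on directions. A coarse class of level was read from the binary step size of the stored numbers. By it, 31 of the 111 member probe sets (27.9%) lay between 8 and 16 on the log2 scale, against 27.7% of all probe sets, 65 lay between 4 and 8, and 14 between 2 and 4. The coregulators were in the top class for 17 of 31 probe sets and the receptors for 14 of 80. Among markers of the labelled tissue, 9 of 11 probe sets for CA1 pyramidal cells were in the top class, as were 6 of 15 for CA2 and CA3 cells and 7 of 25 for dentate granule cells.

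Some facts of the whole series touch what follows. The gene altered in these mice, Ep300, was lower in all 3 p300+/- arrays (-0.26, -0.22 and -0.50) than in the wild-type arrays (0.22, 0.38 and 0.40), at a log2 difference of -0.66 ± 0.13 (SE), an unadjusted p of 0.00103 and an adjusted p of 0.9999 (limma). Whether its probes lie in the altered part of the gene is not known here. Its relative Crebbp had 4 probe sets, at -0.51 to -0.034. Further, p300+/- 3 and wild-type 2 stood apart from the other arrays in the same direction. The correlation of their deviations from their genotype means was 0.648 over all probe sets. It was nearly as high for p300+/- 1 and wild-type 1, at 0.609. Deviations within a genotype cancel out, so these correlations are not independent. The array weights estimated by limma were smallest for p300+/- 3 and wild-type 2, at 0.58 and 0.379 against 0.989 to 3.17 for the others. Median array values ran from -0.014 to 0.023.

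No member changed between the genotypes by the test used, limma over all 45037 probe sets with Benjamini-Hochberg adjustment at 0.05. The count was 0 of 111 member probe sets, where the background is 0% of all probe sets, and every member had an adjusted p of 0.9999. An unadjusted p under 0.05 was found for 3 member probe sets (2.7%), all lower in p300+/-, against 1.22% of all probe sets in either direction, 0.77% higher and 0.451% lower. These were single probe sets of Rorb, Rora and Nrip1. The count was 1 without p300+/- 2, wild-type 1 or wild-type 3, where 1.55%, 1.05% and 1.45% of all probe sets had such a p. It was 8 without wild-type 2, against 2.56% of all. The 3 arrays of a genotype lay entirely beyond those of the other for 7 member probe sets (6.31%), 3 higher and 4 lower in p300+/-, where 5.39% of all probe sets did so, 3.19% higher and 2.2% lower. The share without overlap stood near its background, the other rests on 3 probe sets, and probe sets of a gene share their target. With 3 arrays per genotype the smallest two-sided p an exact permutation could reach is 0.1.

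Across the members the median log2 difference was -0.019, against 0.0057 over all probe sets, and 61 of 111 values (55%) were below 0, against 48.3% of all probe sets, with 50 above 0, against 51.7% of all. With an array left out in turn, that median and 7 of the 8 role medians given below took both signs, the exception being the NR2, NR5 and NR6 orphan receptors. The differences ran from -0.44 to 0.55, and 1 alone, a probe set of Ncoa2, was larger than 0.5 in either direction. The median standard error was 0.15, with 0.35 as the median distance from the estimate to a bound of its 95% interval. Both medians were the same over all probe sets. For 77 of the 111 member probe sets the 95% interval excluded a 1.5-fold difference in both directions. No share over all probe sets was taken for this count. It includes Pgr 1421444_at, in the lowest level class with a range of 0.14 over the arrays. A narrow interval in so dim a probe set need not mean unchanged RNA. Of the 27 genes with more than 1 probe set, 20 had values of both signs, 3 had every value above 0 (Ppard, Ncoa3 and Ncoa4) and 4 had every value below 0 (Ppara, Nr2e1, Nr2f2 and Ncoa1). The plot of member differences shows these values by role.

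**Figure D1:**
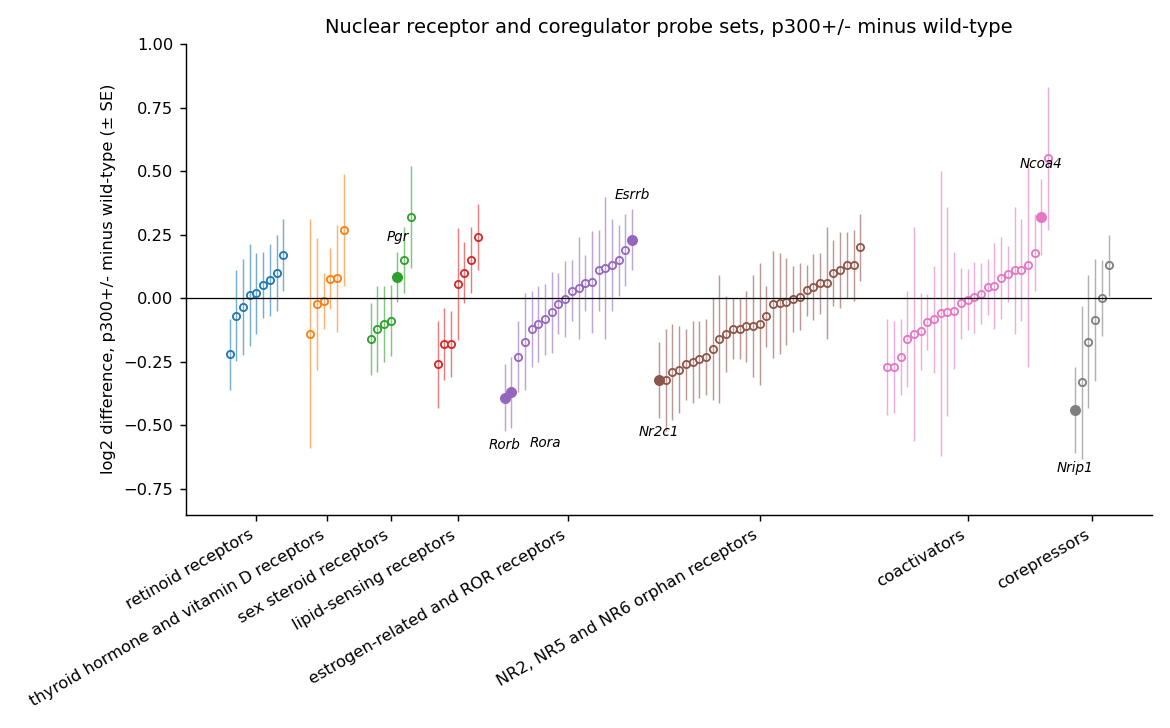
Log2 difference between p300+/- and wild-type (vertical axis, points with SE bars) for the 111 member probe sets, sorted within each role (horizontal axis). Filled, named points are the 7 probe sets whose 3 arrays of a genotype lay beyond those of the other. The points run from -0.44 to 0.55 on both sides of 0 in every role.

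The retinoid receptors bind retinoic acid (RARs) or pair with other receptors as common partners (RXRs). All 6 genes were measured, by 9 probe sets, with a median log2 difference of 0.02. Rxrg, the RXR known for its expression in striatum, had the lowest value in this family. It was at -0.38, -0.085 and 0.026 in p300+/- arrays 1 to 3 and at -0.026, 0.17 and 0.09 in wild-type arrays 1 to 3. The genotypes overlapped, with p300+/- 1 the lowest array, and the log2 difference was -0.22 ± 0.14 (SE), or -0.11 without that array. Rarg, the RAR best known from skin, was at 0.35, -0.046 and 0.062 against 0.046, -0.14 and -0.059, so that p300+/- 1 alone stood above all others. Its difference was 0.17 ± 0.14 (SE), or 0.058 without p300+/- 1, and its other probe set was at -0.068. Rxrb varied most over the arrays in this family, through wild-type 2 and wild-type 3 at its 2 ends. Its p300+/- arrays were at 0.054, -0.0012 and -0.1 and its wild-type arrays at 0.0012, -0.44 and 0.34, with a difference of 0.014 ± 0.2 (SE). Rara was at 0.054, and the 3 probe sets of Rxra, the most widely expressed RXR, ran from -0.034 to 0.1.

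Rarb is both a receptor and a textbook target of the pathway, because ligand-bound RAR acts on a response element in the promoter of Rarb. It was read by 1 probe set, at -0.16, 0.31 and 0.023 in p300+/- and 0.00089, -0.044 and -0.00089 in wild-type arrays. The 2 ends were both p300+/- arrays, and the difference was 0.072 ± 0.14 (SE). The RefSeq promoter of Rarb is shown to make this element visible. The 250 bases before the start lie at chr14:16575477-16575726 (GRCm38.p6, minus strand), 5′ to 3′, and the capitals mark a direct repeat found by searching both strands for GGTTCA and AGTTCA separated by 5 bases.
Rarb promoter: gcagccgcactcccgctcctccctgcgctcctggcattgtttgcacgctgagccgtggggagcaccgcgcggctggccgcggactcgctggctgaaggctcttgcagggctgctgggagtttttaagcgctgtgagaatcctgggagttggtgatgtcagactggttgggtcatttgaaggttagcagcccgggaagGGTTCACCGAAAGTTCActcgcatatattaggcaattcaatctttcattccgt
The repeat begins 53 bases before the start. It was found in 2 of 32851 promoters of the same length (0.00609%), and in 1 of the 60 promoters of 36 listed genes. The letters searched are those of the repeat in Rarb itself. A match in Rarb was therefore fixed in advance, and the rarity of the repeat is not a result. The 60 promoters include those of Nr1h2 and Ncor1 and none of Thra, Ncoa2, Ncoa3 or Ppargc1b. The single receptor motif AGGTCA, searched on both strands as well, was in 9 of those 60 promoters (15%) and in 14% of all. These matches describe letters and were not tested as binding sites.

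The thyroid hormone receptors and the vitamin D receptor had 6 probe sets, 3 above and 3 below 0, with a median of 0.033. Thra encodes the main thyroid hormone receptor of neurons. Its probe set 1426997_at was at 0.17, -0.17 and -0.79 in p300+/- and at 0.42, -1.17 and 0.38 in wild-type arrays. Here p300+/- 3 and wild-type 2 were far below the other 4 arrays, the genotypes overlapped, and the difference was -0.14 ± 0.45 (SE). The other 2 probe sets of Thra had the same 2 arrays lowest, at -0.41 and -0.6 in 1443952_at and at -0.36 and -0.56 in 1454675_at. Thrb, the receptor that mediates feedback by thyroid hormone, was at 0.012, 0.53 and -0.012 against -0.074, 0.22 and -0.43. The difference of 0.27 ± 0.22 (SE) rested on p300+/- 2 as the highest and wild-type 3 as the lowest array, and was 0.095 without p300+/- 2. Vdr, the vitamin D receptor gene, was at -0.053, 0.17 and -0.0073 against -0.13, 0.0083 and 0.0073, a difference of 0.077 ± 0.12 (SE) with overlap, or 0.009 without p300+/- 2, and its other probe set was at -0.011.

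The sex steroid receptors had 7 probe sets with a median of -0.088, which turned to 0.05 without p300+/- 3 and to 0.027 without p300+/- 1. Pgr, the progesterone receptor gene, is a classical estrogen target. In its probe set 1421444_at the p300+/- arrays (0.0064, 0.056 and 0.052) all lay above the wild-type arrays (-0.0064, -0.051 and -0.079). This separation came with a small difference, 0.084 ± 0.1 (SE), and the probe set was in the lowest level class. Another Pgr probe set, 1455772_at, was at 0.016, -0.016 and 0.24 against -0.045, -0.69 and 0.018. Its difference of 0.32 ± 0.2 (SE) rested on wild-type 2, and was 0.093 without that array. The third was at -0.088. Esr1, the estrogen receptor alpha gene, was at -0.28, -0.038 and 0.038 against -0.085, 0.068 and 0.22 in 1460591_at. That difference was -0.16 ± 0.14 (SE) with overlapping genotypes, or -0.066 without p300+/- 1, and the other 2 probe sets of Esr1, both in the lowest level class, were at -0.12 and 0.15. Esr2, the estrogen receptor beta gene, was at -0.1.

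Wild-type 2 was also the array in which markers of the choroid plexus, the secretory epithelium beside the hippocampus, were lowest. Over the 26 probe sets of 16 listed markers the array medians were 0.075, -0.046 and 0.17 in p300+/- and -0.16, -2.21 and 0.24 in wild-type. All 26 differences were above 0, with a median of 0.75. The part of this in the values of Pgr and of the ligand-handling genes below was not tested.

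The lipid-sensing receptors respond to fatty acids (PPARs) and oxysterols (LXRs). Their 7 probe sets had a median of 0.056, which turned to -0.056 without p300+/- 3 and to -0.11 without wild-type 2. Ppara, the driver of fatty acid oxidation, was below 0 in all 3 probe sets, at -0.26, -0.18 and -0.18. In 1449051_at the p300+/- arrays were at -0.47, -0.31 and 0.11 and the wild-type arrays at 0.067, 0.1 and -0.067. p300+/- 1 and p300+/- 2 were the lowest of the 6 arrays and p300+/- 3 was the highest, so the genotypes overlapped and the SE was 0.17. The difference was -0.13 without p300+/- 1 and -0.42 without p300+/- 3. Ppard, the PPAR most widely expressed in brain, was above 0 in both probe sets. Its probe set 1425703_at was at 0.16, 0.18 and -0.023 against 0.023, -0.26 and -0.16, a difference of 0.24 ± 0.13 (SE), in which p300+/- 3 lay between the wild-type arrays. Its probe set 1439797_at was at 0.018, -0.13 and 0.28 against -0.018, -0.4 and 0.42, a difference of 0.056 ± 0.22 (SE) that had the opposite sign without wild-type 2 or without p300+/- 3. Pparg, the regulator of fat cell formation, was at 0.1 and Nr1h3, the liver X receptor alpha gene, at 0.15, each read by 1 probe set.

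Among the estrogen-related receptors and RORs, the 2 smallest p-values of all members were found in the ROR genes. RORs are orphan receptors of the circadian and developmental programmes of the brain, with Rora prominent in thalamus and cerebellum and Rorb in cortical layers and thalamus. In Rorb probe set 1455799_at the p300+/- arrays were at -0.27, -0.47 and -0.1 and the wild-type arrays at 0.12, 0.1 and 0.12. All p300+/- arrays lay below a tight wild-type group, with means of -0.28 ± 0.19 (SD, n = 3) and 0.11 ± 0.013 (SD, n = 3). The signal was 0.762 times that of wild-type (95% interval 0.618 to 0.938), a log2 difference of -0.39 ± 0.13 (SE). The unadjusted p was 0.0173, rank 110 of all probe sets, and the adjusted p 0.9999 (limma). The 2 other Rorb probe sets were at -0.23 and 0.15.

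In Rora probe set 1436326_at the p300+/- arrays were at -0.29, -0.43 and -0.027 and the wild-type arrays at 0.1, 0.027 and 0.22. Again the genotypes did not overlap, although p300+/- 3 and wild-type 2 lay close to each other. The log2 difference was -0.37 ± 0.14 (SE), or 0.776 times wild-type (95% interval 0.619 to 0.973), at an unadjusted p of 0.0325 and an adjusted p of 0.9999 (limma). Rora had the most probe sets of any member, 9, of which 5 were above 0 and 4 below, and the other 8 lay between -0.12 and 0.19. The widest range was in 1420583_a_at, at -0.062, 0.36 and -0.48 against 0.062, -0.68 and 0.094, again with p300+/- 3 and wild-type 2 lowest. Its difference was 0.12 ± 0.28 (SE).

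With an array left out in turn, the difference was -0.48 to -0.28 for Rora 1436326_at and -0.49 to -0.3 for Rorb 1455799_at. The sign could not turn, because the genotypes did not overlap in either probe set. Thalamus markers, a list that includes Rora with its 9 probe sets, had a median difference of 0.039 over 33 probe sets, with 20 above 0. Of these markers, 5 probe sets (15.2%) had no overlap between genotypes, 3 higher and 2 lower in p300+/-, against 5.39% of all probe sets. Their array medians were between -0.027 and 0.056 in p300+/- and between -0.017 and 0.019 in wild-type. Cortex and striatum markers, which include Rorb, Rxrg and Rarb, had a median of -0.02 over 29 probe sets, with array medians of -0.076 to 0.048 against -0.0071 to 0.11. The part of neighbouring tissue in the ROR values was not tested.

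Esrrb, an estrogen-related receptor gene known from embryonic stem cells, was higher in all p300+/- arrays in 1436926_at. These were at 0.01, 0.14 and 0.28 and the wild-type arrays at -0.06, -0.17 and -0.01. The difference was 0.23 ± 0.12 (SE), with an interval from -0.059 to 0.51, and its other probe sets were at -0.021 and 0.029. Esrra, the partner of PGC-1 coactivators in mitochondrial gene expression, was at -0.055 and 0.061. Esrrg, an estrogen-related receptor of highly oxidative cells including neurons, ran from -0.17 to 0.13 over 3 probe sets.

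**Figure D2:**
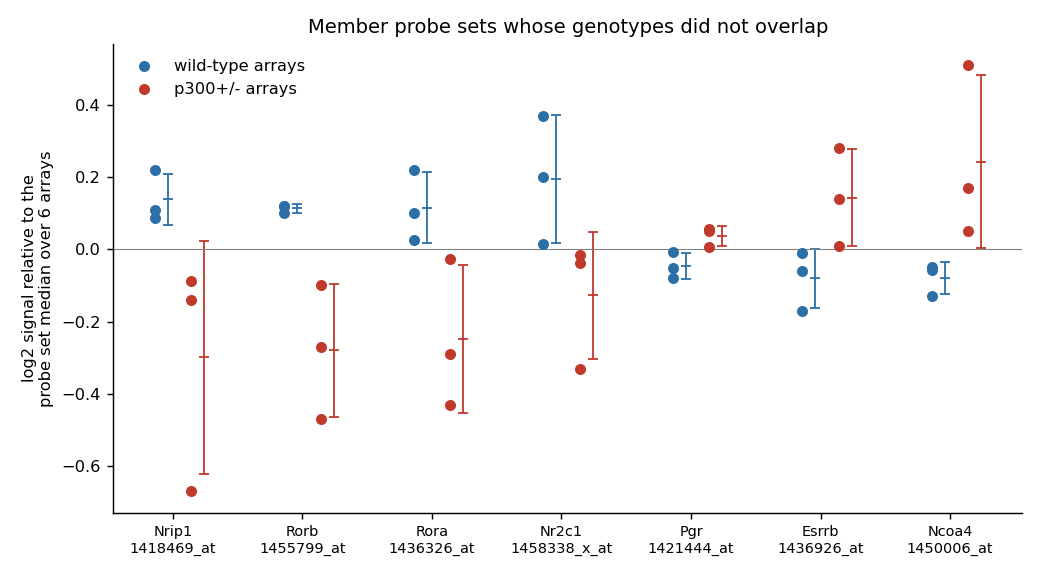
Signal (vertical axis, log2 relative to the probe set's median over 6 arrays) on each array for the 7 member probe sets without overlap between genotypes (horizontal axis), with mean and SD beside the points (n = 3 per genotype). Rorb shows the tightest wild-type group of the 4 lower probe sets, and the 3 higher ones include Pgr 1421444_at with a difference of 0.084.

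The orphan receptors of the NR2, NR5 and NR6 families were the role with the most probe sets, 31 for 8 genes. Their median difference was -0.1, and 21 of 31 values were below 0, against 48.3% of all probe sets. With p300+/- 3 or wild-type 3 left out the median was -0.032 or -0.016. Nr2f2 (COUP-TFII), a factor of interneurons from the caudal ganglionic eminence and of veins, was below 0 in all 6 probe sets, from -0.28 to -0.071, none of them without overlap. Interneuron markers of several classes, a list without Nr2f2, had a median of 0.082 over 25 probe sets, with 17 above 0. Vascular and meningeal markers had a median of 0.1 over 40 probe sets, with 27 above 0. The part of either cell type in the Nr2f2 values was not tested. Nr2f1 (COUP-TFI), which patterns cortex and hippocampus, was at -0.32 in its 1 probe set, with a range of 0.97 over the arrays. Nr2f6, a related repressor, was at -0.11 and 0.044.

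Nr2c1 (TR2) and Nr2c2 (TR4) bind direct repeats as each other's partner. The Nr2c1 probe set 1458338_x_at was at -0.015, -0.037 and -0.33 in p300+/- and at 0.37, 0.015 and 0.2 in wild-type arrays, without overlap. This was a difference of -0.32 ± 0.15 (SE) and an unadjusted p of 0.0611 (limma), in a probe set of the kind that can bind several transcripts. The 4 other Nr2c1 probe sets ran from -0.23 to 0.2. Nr2c2 had 4 of 6 probe sets below 0, from -0.29 to 0.1. Its smallest p belonged to 1439696_at, in the lowest level class, at 0.013, -0.18 and -0.38 against 0.22, 0.033 and -0.013. The difference there was -0.26 ± 0.14 (SE), or -0.16 without p300+/- 3, and p300+/- 1 lay among the wild-type arrays.

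Nr2e1 (TLX), which keeps neural stem cells in a dividing state, was below 0 in both probe sets. In 1434921_at the p300+/- arrays were at -0.053, 0.085 and -0.24 and the wild-type arrays at 0.053, -0.4 and 0.63. The difference of -0.16 ± 0.25 (SE) was smaller than the gap between wild-type arrays, of which wild-type 3 was the highest of all 6. Both probe sets had p300+/- 3 and wild-type 2 as their 2 lowest arrays, at -0.45 and -0.42 in 1457289_at. The list of precursor and immature neuron markers had a median difference of -0.047 over 27 probe sets. Unlike Nr2e1, its array medians were highest in p300+/- 3 and wild-type 2, at 0.087 and 0.1, against -0.051 to 0.01 in the others. Nr5a2, known from bile acid synthesis and pluripotency, ran from -0.0022 to 0.13 over 4 probe sets, and Nr6a1, a germ cell factor, from -0.024 to 0.13 over 5.

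Coactivators carry the signal from a receptor to the transcription machinery. The 8 genes were read by 25 probe sets, 12 above and 13 below 0, with a median of -0.0061. Ncoa4, first described as a coactivator of the androgen receptor and known for delivering ferritin to autophagy, had a probe set without overlap. In 1450006_at the p300+/- arrays were at 0.05, 0.51 and 0.17 and the wild-type arrays at -0.057, -0.13 and -0.05. The difference was 0.32 ± 0.15 (SE), 1.25-fold with an interval from 0.99 to 1.58, and p300+/- 2 lay far above the rest. Without that array it was 0.19. Its other probe set was at 0.049. Ncoa2, a p160 coactivator that recruits p300 and CBP, was at 0.37, 0.75 and -0.19 against -0.007, -0.7 and 0.007 in 1450458_at. That was the largest difference of the members, 0.55 ± 0.28 (SE), with p300+/- 3 below 2 of the wild-type arrays. It was 0.31 without wild-type 2, 0.33 without p300+/- 2 and 0.8 without p300+/- 3. The 3 other Ncoa2 probe sets were at -0.27, -0.16 and 0.13.

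No probe set of the remaining coactivator genes separated the genotypes. Ncoa1, a p160 coactivator, ran from -0.049 to -0.0061 and Ncoa3, another p160 gene, from 0.0037 to 0.08. Ncoa6, a scaffold of a histone methyltransferase complex, was at -0.092. Med1, the Mediator subunit that contacts receptors, ran from -0.13 to 0.18 over 7 probe sets. Ppargc1a (PGC-1 alpha), which drives mitochondrial genes and is high in interneurons, ran from -0.27 ± 0.18 (SE) to 0.044 ± 0.11 (SE) over 5 probe sets, and Ppargc1b was at -0.052 ± 0.41 (SE).

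Promoters of 2 members are shown here, because Ppargc1a is a textbook target of CREB, a factor that binds the cAMP response element and recruits p300 and CBP. Nr2e1 is the 1 member whose promoter held the full element TGACGTCA. The 250 bases before each RefSeq start (GRCm38.p6, minus strand, 5′ to 3′) are at chr5:51567726-51567975 for Ppargc1a and chr10:42583591-42583840 for Nr2e1. Capitals mark the short element TGACG on either strand and the full element, which contains the short one on both strands.
Ppargc1a promoter: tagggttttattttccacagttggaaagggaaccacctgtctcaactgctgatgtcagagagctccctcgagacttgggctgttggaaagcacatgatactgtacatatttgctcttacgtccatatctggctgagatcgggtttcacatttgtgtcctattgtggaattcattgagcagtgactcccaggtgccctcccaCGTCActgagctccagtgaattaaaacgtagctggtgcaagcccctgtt
Nr2e1 promoter: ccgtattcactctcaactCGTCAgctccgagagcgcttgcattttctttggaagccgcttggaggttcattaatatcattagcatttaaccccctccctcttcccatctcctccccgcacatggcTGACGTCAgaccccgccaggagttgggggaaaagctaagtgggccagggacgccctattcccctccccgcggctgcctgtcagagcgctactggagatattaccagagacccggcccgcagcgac
The short element of Ppargc1a begins 49 bases before the start, and the full element of Nr2e1 begins 125 bases before it. Short elements were in 12 of the same 60 promoters of listed genes (20%) and in 17.8% of all 32851. The full element was in 1 of the 60 and in 1.55% of all.

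Of the corepressors, Nrip1 (RIP140) was measured, by 6 probe sets with a median of -0.13, which was 0.0025 without p300+/- 2 and 0.0073 without wild-type 2. This protein binds ligand-activated receptors and recruits deacetylases. In 1418469_at the p300+/- arrays were at -0.088, -0.67 and -0.14 and the wild-type arrays at 0.088, 0.11 and 0.22. The genotypes did not overlap and p300+/- 2 was far below the rest. The difference was -0.44 ± 0.17 (SE), 0.738 times wild-type (95% interval 0.559 to 0.976), at an unadjusted p of 0.0366 and an adjusted p of 0.9999 (limma). It was -0.25 without p300+/- 2. In 1449089_at the values were -0.04, 0.04 and -0.76 against 0.1, -0.44 and 0.58, a difference of -0.33 ± 0.3 (SE) with overlap. That difference was -0.077 without p300+/- 3, -0.08 without wild-type 3 and -0.59 without wild-type 2. The 4 other probe sets lay between -0.17 and 0.13.

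Array by array, the coregulators varied more than the genotype contrast shows. A range over the 6 arrays above 1 was found for 7 of 31 coregulator probe sets (22.6%) and 3 of 80 receptor probe sets (3.75%), against 9.49% of all probe sets. The coregulators also had more of their probe sets in the top level class, 54.8% against 17.5% of the receptors. Of the 7 with a range above 1, Ppargc1b 1449945_at and Nrip1 1449089_at were in that class. Ncoa2 1435234_at and 1450458_at, Ppargc1a 1456395_at and Nrip1 1454295_at were in the middle class, and Ppargc1a 1460336_at had no class assigned. In the top class the median range was 0.58 for members and 0.5 for all probe sets. In the middle class both medians were 0.52 and in the lowest 0.36.

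The arrays p300+/- 3 and wild-type 2 were the 2 lowest in 27 of 111 member probe sets (24.3%), against 15.8% of all, and the 2 highest in 11 (9.91%), against 21.4% of all. Among the coactivators they were the 2 lowest in 11 of 25 (44%), and in a list of other coregulators in 30 of 69 (43.5%). Wild-type 2 alone was lowest in 33 member probe sets (29.7%, against 18.4% of all). As probe sets of a gene share their target, these counts describe the members and were not tested.

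**Figure D3:**
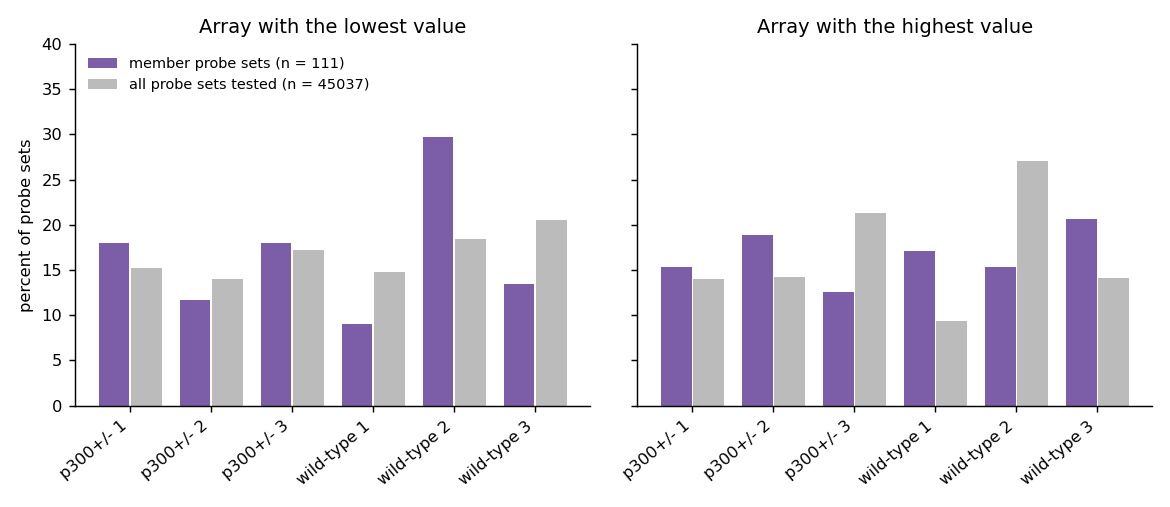
Percent of probe sets (vertical axis) in which each array (horizontal axis) held the lowest value, left, or the highest value, right, for the 111 member probe sets and for all 45037. Wild-type 2 was lowest in 29.7% of member probe sets against 18.4% of all, and highest in 15.3% against 27.1%.

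In 7 member probe sets (6.31%) both arrays lay below -0.5, against 2.78% of all probe sets, and in none did both lie above 0.5, against 1.27% of all. The widest range of any member, 2.1, was in Ppargc1a 1460336_at, at 0.02, 0.21 and -1.19 in p300+/- and 0.67, -1.43 and -0.02 in wild-type arrays. The genotype difference in it was -0.059 ± 0.56 (SE). A second Ppargc1a probe set, 1456395_at, had -1.03 in p300+/- 3 and -0.99 in wild-type 2, with the other arrays between -0.12 and 0.35. The other 3 did not share this, with values of 0.01 to 0.06 in p300+/- 3 and 0.02 to 0.24 in wild-type 2. Probe sets of 1 gene therefore gave different array profiles, and which part of the transcript each reads was not used here.

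Ppargc1b (PGC-1 beta), the relative of Ppargc1a, had the same profile in its only probe set, at -0.98 and -1.09 in these 2 arrays and between -0.11 and 0.23 in the others. Ncoa2 1435234_at was at -0.89 and -0.87, Med1 1421906_at at -0.54 and -0.61, and Ncoa1 1418594_a_at at -0.5 in both, while no other probe set of these genes had both arrays below -0.5. With Thra 1426997_at, these are the 7 probe sets. In each of them an array of either genotype was low, with genotype differences of -0.14 to 0.13 at SEs of 0.23 to 0.56.

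**Figure D4:**
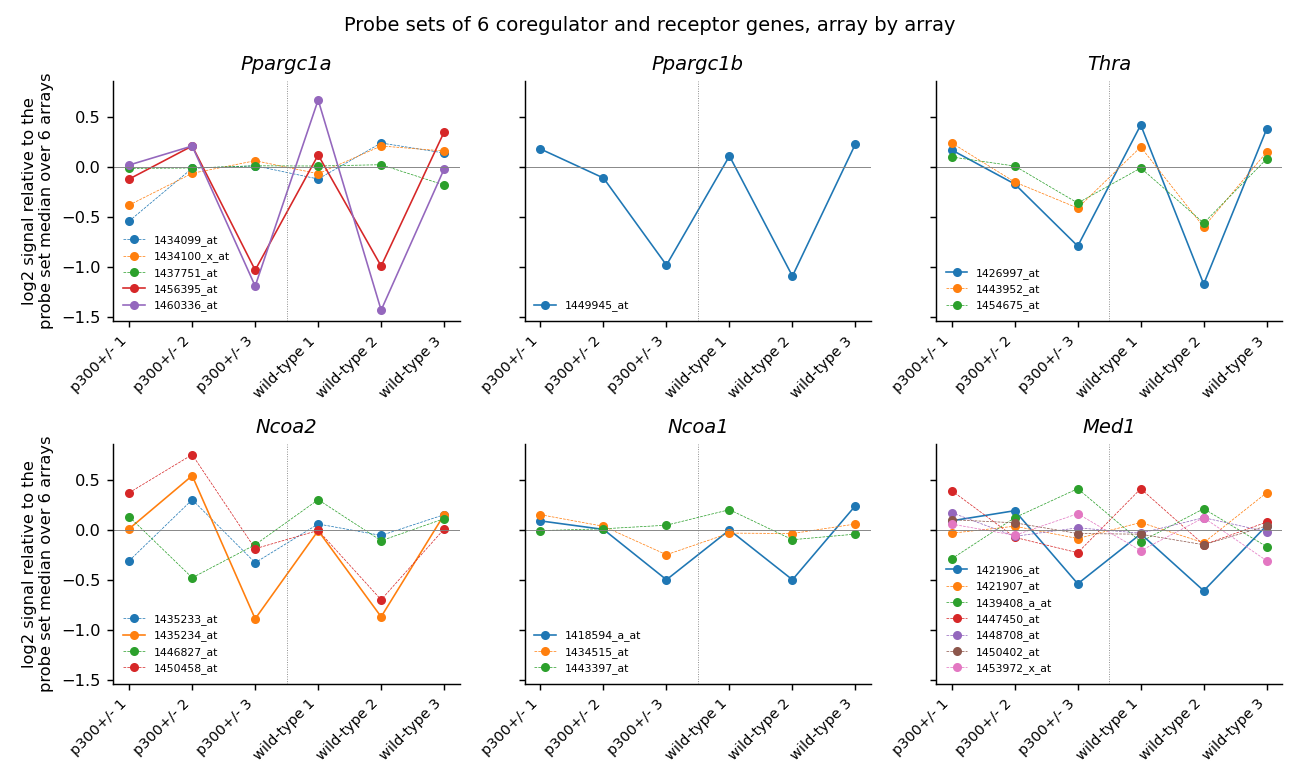
Signal (vertical axis, log2 relative to the probe set's median over 6 arrays) on each array (horizontal axis, p300+/- left and wild-type right of the dotted line) for every probe set of 6 genes. Solid lines mark the 7 probe sets below -0.5 in both p300+/- 3 and wild-type 2, and lines join values of 1 probe set without implying an order. In Ppargc1a, 2 of 5 probe sets dip to about -1 or lower in both arrays.

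Some array measures set these 2 arrays apart from the others, and some did not. The median of 18 hybridization control probe sets was 0.53 in p300+/- 3 and 0.24 in wild-type 2, against -0.95 to 0.00097 in the others. Microglia markers were at array medians of 0.29 and 0.19, against -0.1 to 0.0079. The difference between 5′ and 3′ probe sets of beta-actin, a measure of RNA integrity, was 0.094 and -0.2, against -0.066 to 0.12 in the others, so that wild-type 2 was the lowest. That of Gapdh was 0.1 and -0.011, against -0.055 to 0.049, so that p300+/- 3 alone lay beyond the others. Poly-A control medians were 0.13 and 0.52, against -0.44 to 1.04 in the others. Medians of 18S rRNA controls were 0.26 and 0.45, against -1.23 to 0.68. The part of any of these in the member values was not tested.

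Without p300+/- 3 and wild-type 2, 4 arrays remain. Of the member probe sets 34 then had no overlap between genotypes, against 28.3% of all. An unadjusted p under 0.05 was found for 8 member probe sets, where 2.39% of all probe sets had one, and no probe set passed after adjustment (limma). Rora 1436326_at was at -0.52 ± 0.13 (SE), Rorb 1455799_at at -0.49 ± 0.13 (SE), and Nrip1 1418469_at at -0.53 ± 0.21 (SE). Ncoa2 1450458_at was at 0.56 ± 0.16 (SE), Nr2f2 1416159_at at -0.38 ± 0.12 (SE), Ppara 1449051_at at -0.39 ± 0.13 (SE), Rora 1441085_at at 0.34 ± 0.12 (SE) and Thra 1426997_at at -0.4 ± 0.15 (SE). The Rora probe sets among them had opposite signs.

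Other genes of the pathway were read from 6 lists, and none passed the test. The medians of 5 lists took both signs with an array left out in turn, that of the lipid receptor targets being the exception. That median was 0.0025 without p300+/- 3. Of 15 other nuclear receptor genes with 35 probe sets, 16 probe sets were above and 19 below 0, with a median of -0.012 and 0 at an unadjusted p under 0.05 (limma). Hnf4g, a liver and gut receptor gene in the lowest level class, had the smallest p, at -0.2 ± 0.12 (SE), followed by Nr3c1, the glucocorticoid receptor gene, at -0.32 ± 0.24 (SE) in 1457635_s_at, with its 5 other probe sets at -0.025 to 0.45. Of 25 other coregulator genes with 69 probe sets, 1 probe set was higher and 1 lower at an unadjusted p under 0.05 (limma). The lower was Ep300, and the higher Bcl11a 1426552_a_at, at 0.38 ± 0.12 (SE). Bcl11a encodes a zinc finger repressor that binds COUP-TF receptors. Its 6 other probe sets ran from -0.27 to 0.086.

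Genes that make, carry or break down ligands had a median of 0.035 over 39 probe sets of 24 genes. Stra6, the cellular retinol importer, was at 0.34, 0.085 and -0.011 in p300+/- and -0.42, -0.84 and 0.011 in wild-type arrays. Its difference was 0.56 ± 0.22 (SE), unadjusted p 0.0382 (limma), and 0.34 ± 0.18 (SE) without wild-type 2. Slco1c1, a thyroxine transporter of brain vessels, did not overlap, at 0.019, 0.1 and 0.15 against -0.25, -0.092 and -0.019. The vascular and meningeal markers had a median difference of 0.1 over 40 probe sets, and its part in that value was not tested.

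Target genes were described last. Retinoic acid and thyroid hormone targets had a median of 0.048 over 30 probe sets of 14 genes, with Stra6, which is on both lists, the 1 at an unadjusted p under 0.05 (limma). Klf9, a thyroid hormone and glucocorticoid target, was at 0.35 ± 0.25 (SE) in 1436952_at and at 0.071 there without wild-type 2, and its 6 other probe sets ran from -0.13 to 0.078. Lipid receptor targets had a median of 0.039 over 41 probe sets of 21 genes, again with 1 probe set at an unadjusted p under 0.05 (limma). That was Txnip 1415997_at, at 0.87 ± 0.11 (SE), and the other Txnip probe set was at 0.37. Txnip 1415997_at had rank 1 of p over all probe sets. The list was chosen with earlier results of these data known, so nothing about the receptors is concluded from it. Acaa2, an enzyme of fatty acid oxidation, followed at 0.31 ± 0.23 (SE) in 1455061_a_at, which was 0.15 without wild-type 2, with its 2 other probe sets at 0.13 and 0.14. Mitochondrial targets of PGC-1 and the estrogen-related receptors had a median of -0.006 over 60 probe sets of 23 genes, 29 above and 31 below 0. None had an unadjusted p under 0.05 (limma). The smallest were those of Idh3b 1441271_at, at 0.25 ± 0.15 (SE), and Sod2 1417193_at, at 0.22 ± 0.14 (SE). The 2 other Idh3b probe sets were at -0.061 and -0.014, and the 3 other Sod2 probe sets ran from -0.027 to 0.12. The differences of the whole list ran from -0.37 to 0.25. In 2 of its probe sets (3.33%) the genotypes did not overlap, both lower in p300+/-, against 5.39% of all probe sets. In p300+/- 3 and wild-type 2, where 2 of the 5 Ppargc1a probe sets were low, the medians of this list were 0.032 and 0.053. They were -0.034 to 0.0081 in the other arrays. The medians of all probe sets were also highest in p300+/- 3 and wild-type 2, at 0.0073 and 0.023. A relation between Ppargc1a and this list was not tested.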

How the data were processed

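Values came from the series' table of 45101 probe sets on 6 arrays. Per the labels' protocols, the authors processed and normalized the deposited log2 values in GeneSpring GX. The sources used here do not give its version, the probe summarization or the normalization. The largest probe set median over the 6 arrays was 5e-07, so the values are centred per probe set. After 64 control probe sets were left out, 34945 of 45037 had a single gene symbol from the platform annotation, 932 had several and 9160 had none. Of the first, 34741 matched RefSeq (GRCm38.p6) by gene identifier and took its symbol.

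Genotypes were compared with R 4.3.3 and limma 3.58.1 (linear models with empirical Bayes moderation, two-sided, no covariates, Benjamini-Hochberg over all 45037 probe sets), without a filter on dim probe sets, as centred values hold no level. The test was tested on simulated data of 45037 probe sets, with independent noise at the spread of each real probe set. It called 0 of 200 changes of 1.5-fold, 85 of 2-fold and 181 of 4-fold. Of the unchanged probe sets it called 0, 2 and 7 in these runs. The structure shared between the real arrays was not simulated, so these counts need not hold for them. The level class was right for 99.3% of 18538 simulated probe sets. The number of arrays limits the precision.

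The members and all gene lists were chosen with earlier results of these data known. Values on every array are given for member probe sets without overlap, with an unadjusted p under 0.05, for the 2 genes of smallest p and the probe set of widest range in each role. The 7 probe sets low in both p300+/- 3 and wild-type 2 and the counts on those arrays were chosen after their values were seen. Deviations of same-numbered arrays correlated at 0.609 for number 1 but at -0.23 and -0.468 for numbers 2 and 3, so replicate numbers were not taken as pairs. Figures were drawn with matplotlib 3.10.9. Alternatives were quantile normalization, median centring, array weights, trend and robust moderation, a replicate block, leaving out the lowest level class or the probe sets not specific to a single transcript, values per gene, a threshold of 0.1, and omission of arrays.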

Additional observations from a re-analysis of the deposited data

How the results depend on the processing

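No member passed the adjusted threshold under any alternative run, and the smallest adjusted p of a member was 0.974 (limma). Over all probe sets it was 0.0668, with trend and robust moderation. Of 24 named member probe sets, 18 kept their sign in every alternative. The 7 without overlap between genotypes could not turn when arrays were left out. The count of member probe sets at an unadjusted p under 0.05 was 10 with array weights (3.62% of all probe sets had such a p), 1 with trend and robust moderation (1.51%), and 8 without p300+/- 3 and wild-type 2 together (2.39%), in place of 3 (1.22%). With an array left out it ran from 1 (without p300+/- 2, wild-type 1 or wild-type 3) to 8 (without wild-type 2), and was 5 without p300+/- 3, with 1.05% to 2.56% of all. It was 3 with the replicate block (1.34%), which changed no call. Probe sets without overlap numbered 34 with both arrays out, where 28.3% of all did so, and 14 to 23 (12.6% to 20.7%) with an array out, where 12.1% to 18.1% of all did so, as fewer arrays separate more easily. The median log2 difference of the members ran from -0.064 (without wild-type 2) to 0.02 (without p300+/- 3). Values turned for Ppard 1439797_at (-0.032 with array weights, -0.041 with quantile normalization, -0.26 without both arrays) and for Rxrb 1416990_at (-0.036, -0.043 and -0.15 likewise). The cause was not tested. With an array left out, Ppard ran from -0.15 to 0.27, Rxrb from -0.19 to 0.2, Nr2e1 1434921_at from -0.41 to 0.1, Ppargc1a 1460336_at from -0.64 to 0.41, Rora 1420583_a_at from -0.14 to 0.33 and Thra 1426997_at from -0.66 to 0.13. Array medians of the members moved to 0.023 in wild-type 1 with quantile normalization, to -0.04 in wild-type 2 with median centring, and, without probe sets that can bind several transcripts, to -0.038 in wild-type 2 and 0.038 in wild-type 3. Centred values hold no signal over background, so its limit is known only through the level class.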
